A study of Mus musculus with 42 samples.

Results

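Lungs of mice given the high dose of benzo(k)fluoranthene (BkF) were compared with lungs of mice given the medium dose, to see which transcripts still differed when the dose doubled and which stayed at the level already reached. The arrays were chosen by their labels alone: the 4 lung arrays of the D3 group (100 mg/kg-bw/day) and the 4 of the D2 group (50 mg/kg-bw/day), 8 of the 15 lung arrays and of the 42 arrays of the series. BkF is a polycyclic aromatic hydrocarbon formed during incomplete combustion. All mice were males of the transgenic Muta™Mouse strain, which carries a bacterial reporter gene for mutation assays, aged about 11 weeks. They received BkF in olive oil by gavage each day for 28 days, and lungs were taken 72 h after the last dose. The vehicle group (D0, 0 mg/kg-bw/day, olive oil alone, 4 lungs) and the low-dose group (D1, 25 mg/kg-bw/day, 3 lungs) entered only the side comparisons named below. Each array is 1 mouse, so no animals were pooled. RNA came from random sections of lung, and a lower level of a transcript could mean fewer cells of a type or less RNA per cell, which cannot be told apart here.

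Each 2-colour array set lung RNA (Cy5) against 1 reference RNA pooled from mouse cell lines (Cy3), without a dye swap. All levels below are log2 ratios of lung over this reference after loess normalisation, and a difference of 1 on this scale is a doubling. The 15 arrays lay on 4 slides, and every slide held 1 D2 lung in its column 3 and 1 D3 lung in its column 4. The D2 and D3 mice paired in this way were 12 and 17, 15 and 19, 13 and 20, and 11 and 16. Because the column was the same on every slide, position on the slide and dose cannot be told apart. Between 22604 (mouse 20) and 33083 (mouse 15) probes per array were well above background in the lung channel, and 29902 probes that were so on at least 4 of the 8 arrays were tested. Lung markers were high throughout: the mean ratio of 13 alveolar genes lay between 4.07 and 4.85 on the 8 arrays. Mouse 12 of the D2 group stood apart, with a mean ratio of 4.84 over 8 skeletal muscle genes against -0.60 to 0.19 on the other 7 arrays. In the same lung the mean of the 2 tested stratified epithelium genes (Krt14 and Lor) was 4.38, against -0.12 to 0.59 elsewhere. Results that rest on this lung are therefore also given without its slide. The spike-in controls, RNA added in known amounts, also differed between the arrays of a slide, by 0.39 (mouse 17 minus 12), 0.04 (19 minus 15), 1.10 (20 minus 13) and 0.17 (16 minus 11), and with these ratios as a covariate 45 of the 76 single-probe differences D3 minus D2 examined here moved by over 1.5 times.

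The aryl hydrocarbon receptor (AhR) is a transcription factor that is activated by binding polycyclic aromatic hydrocarbons. It then pairs with ARNT in the nucleus and binds DNA elements with the core GCGTG, which switches on a set of genes often called the AhR battery. The battery includes Cyp1a1 and Cyp1b1, the enzymes that oxidise these hydrocarbons to reactive products, the repressors Ahrr and Tiparp, which dampen the receptor, and conjugating or reducing enzymes such as Nqo1. In lung, Cyp1a1 is barely made without an inducer and is among the genes most responsive to them.

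Of the 10 battery genes, 9 had a window in the RefSeq promoter table (build GRCm38.p6). The 250 bases before the start are printed for the 4 battery genes with the highest D3 minus D2 values, so that the letters of the response element can be seen. Capitals mark the core GCGTG, or CACGC where it lies on the other strand.
Cyp1a1, chr9:57697363-57697612, plus strand: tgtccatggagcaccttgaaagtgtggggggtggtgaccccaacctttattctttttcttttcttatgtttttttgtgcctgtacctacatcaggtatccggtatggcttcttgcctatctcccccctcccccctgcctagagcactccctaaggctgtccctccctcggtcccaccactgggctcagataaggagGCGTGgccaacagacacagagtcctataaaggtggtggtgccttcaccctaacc
Cyp1b1, chr17:79715062-79715311, minus strand: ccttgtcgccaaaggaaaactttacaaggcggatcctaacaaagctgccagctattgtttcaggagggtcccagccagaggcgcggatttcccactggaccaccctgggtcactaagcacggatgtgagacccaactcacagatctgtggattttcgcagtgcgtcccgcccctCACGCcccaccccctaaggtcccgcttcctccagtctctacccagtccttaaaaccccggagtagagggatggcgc
Ahrr, chr13:74292332-74292581, minus strand: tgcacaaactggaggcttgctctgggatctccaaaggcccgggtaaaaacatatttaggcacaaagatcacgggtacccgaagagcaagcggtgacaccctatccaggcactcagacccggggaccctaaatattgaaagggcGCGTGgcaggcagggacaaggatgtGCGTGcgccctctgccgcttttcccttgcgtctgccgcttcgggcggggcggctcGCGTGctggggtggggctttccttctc
Tiparp, chr3:65528197-65528446, plus strand: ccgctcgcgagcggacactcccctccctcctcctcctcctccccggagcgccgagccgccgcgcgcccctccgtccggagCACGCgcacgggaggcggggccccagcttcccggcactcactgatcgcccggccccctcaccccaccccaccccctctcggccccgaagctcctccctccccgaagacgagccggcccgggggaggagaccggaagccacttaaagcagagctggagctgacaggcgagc
The core was found 3 times before Ahrr, the first base of each match lying 107, 82 and 27 bases before the start, and once each before Cyp1a1 (54 bases), Cyp1b1 (76 bases) and Tiparp (170 bases). It was also present before Gsta2, so that 5 of the 9 battery windows held it, beside 28.2% of all 32851 windows of the table cut to the same length. A match describes letters in this window and not a bound site.

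No probe passed the test between the high and the medium dose. Among 29902 probes, limma called 0 (0%), a call needing an adjusted p no higher than 0.05 together with a 1.5-fold difference, and the lowest adjusted p was 0.733. Without adjustment, 1377 probes (4.61%) had a p under 0.05, 703 of them higher and 674 lower in D3. The count of calls was also 0 in each of the 12 other fits of all 8 or all 15 arrays, among them those without a slide term (1120 probes at an unadjusted p under 0.05), with all 15 lung arrays (3688), on the ratio of the scanner software (1353), on the deposited table (1411) and with the spike-in ratio as a covariate (402). Without the slide of mouse 12 it was 0 again, with 1150 probes at an unadjusted p under 0.05. For most probes the interval of the difference was nevertheless narrow on this ratio, which was taken without background subtraction. The 95% confidence interval of D3 minus D2 lay wholly between a 1.5-fold fall and a 1.5-fold rise (±0.585 in log2) for 72% of the probes tested, with a median standard error of 0.13. On the ratio of the scanner software 27 of the 76 single-probe differences moved by over 1.5 times, so this share holds for the median-signal ratio only. Over all probes the median difference was 0.01, and 51.3% were above 0.

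In the battery most genes had a higher mean at D3, without passing the test. Of its 10 genes, 9 were tested and 0 were called, beside 0% of all probes. The difference D3 minus D2 was above 0 for 8 of the 9 and 3 of them had an unadjusted p under 0.05. The median over the 9 was 0.23, and without the slide of mouse 12 it was 0.42 with 9 of 9 above 0. The count above 0 was 6 of 9 without the slide of mice 13 and 20, and also with the spike-in covariate. Cyp1a2, the tenth, was well above background on none of the D2 arrays and on 1 D3 array and was not tested.

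Cyp1a1, the main hydrocarbon-oxidising enzyme of lung, was already very high at the medium dose. Its log2 ratios at D2 were 8.46 (mouse 12), 8.66 (mouse 15), 9.57 (mouse 13) and 9.14 (mouse 11), against 2.09 to 3.29 in the vehicle lungs. At D3 they were 9.29 (mouse 17), 9.73 (mouse 19), 9.47 (mouse 20) and 9.43 (mouse 16). The groups overlapped: the D3 lungs were all close together, and mouse 13 of D2 lay above 3 of them. D3 exceeded D2 by 0.52 (95% interval 0.02 to 1.02), a 1.43-fold difference, with an unadjusted p of 0.0442 and an adjusted p of 0.733 in limma. Both doses together exceeded the vehicle by 6.55 (standard error 0.67), a value that includes part of this step. The size depended on how the spread and the ratio were taken. With all 15 lungs in the fit the unadjusted p was 0.513, the scanner software's ratio gave 0.32, the lung channel alone 0.70 and the spike-in covariate 0.88 (0.27 to 1.49). The difference was 0.34 (-0.19 to 0.87) without the slide of mouse 15, and the interval included 0 in 3 of the 4 fits that left out 1 slide. The reference channel of this spot was well above background on 0 of 4 vehicle, 3 of 4 D2 and 4 of 4 D3 arrays, which leaves the size of these ratios uncertain. It read 38 to 71 units in D2 and 48 to 87 in D3 against 29 to 37 in the vehicle group, and no lung or reference spot of it was saturated.

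Cyp1b1, a second hydrocarbon-oxidising enzyme, had log2 ratios of 3.60, 2.00, 4.22 and 4.18 at D2 and 4.27, 4.24, 3.69 and 4.37 at D3 (mice 12, 15, 13, 11 and their slide partners 17, 19, 20, 16, the order used from here on). Mouse 15 was the low value of D2, and the other D2 lungs lay within or near the D3 range. D3 minus D2 was 0.64 with an interval from -0.39 to 1.67. It was 0.11 without the slide of mouse 15, 1.03 without the slide of mice 13 and 20, and 1.45 (0.26 to 2.64) with the spike-in covariate, so its size was poorly determined.

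The repressors of the receptor came next, with differences above those of the other battery genes except where the spike-in covariate was used (Cyp1b1 1.45, Ahrr 1.4, Tiparp 1.26). Tiparp, an ADP-ribosyltransferase that AhR induces and that acts back on it, had log2 ratios of 1.19, 0.83, 1.91 and 1.56 at D2 and 2.59, 2.04, 2.39 and 2.46 at D3. All D3 lungs lay above all D2 lungs, and the D2 lungs lay above the vehicle range of 0.22 to 0.48. The difference was 1.00 (0.58 to 1.41), a 1.99-fold higher level at D3, with an unadjusted p of 0.00102 in limma and D3 above D2 on 4 of 4 slides. A second Tiparp probe gave 0.66 (0.04 to 1.28), with D3 higher on 3 of 4 slides. Ahrr, which competes with AhR for ARNT, had log2 ratios of 3.42, 2.64, 3.97 and 4.02 at D2 and 4.55, 4.38, 4.03 and 4.63 at D3. Here too the groups did not overlap, though by a narrow margin, since mouse 20 lay only just above mouse 11. D3 minus D2 was 0.88 (0.23 to 1.54), a 1.85-fold difference with an unadjusted p of 0.0164, and 0.60 (0.01 to 1.18) without the slide of mouse 15. A second Ahrr probe was well above background on 1 of 4 D2 and 3 of 4 D3 arrays and on 0 in the reference channel, so no size is given for it, and on it the groups overlapped. Of the 9 tested battery genes, Tiparp and Ahrr were the 2 with every D3 lung above every D2 lung, and 0 had every D3 lung below. Over all probes with values on the 8 arrays, 1.43% had every D3 lung above and 1.18% every D3 lung below.

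The vehicle lungs give a scale for these steps. Ahrr was well above background on 0 of the 4 vehicle arrays, and the lung signal of both doses together was at least 23-fold higher. Without the slide of mouse 12 the difference of Tiparp was 0.86 (0.46 to 1.27) and that of Ahrr 0.80 (0.04 to 1.57). Leaving out the slide of mice 13 and 20, whose arrays also differed most in the spike-in controls, gave 1.17 (0.79 to 1.54) for Tiparp and 1.16 (0.53 to 1.79) for Ahrr.

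The remaining battery members are conjugating, reducing or oxidising enzymes. Nqo1, a quinone reductase, had log2 ratios of 0.87, -0.83, 0.27 and 0.15 at D2 and 0.78, -0.23, 0.47 and 0.38 at D3. The D3 values fell within the D2 range, whose highest value was that of mouse 12. The difference of 0.23 had an interval of -0.10 to 0.57, inside the 1.5-fold range in this fit. Without the slide of mouse 12 it was 0.35 (0.02 to 0.67), which passed the range. The interval also passed the range without the slide of mouse 11 (to 0.70) or of mouse 13 (to 0.69). It did so too on the scanner software's ratio (to 0.78), with the spike-in covariate (to 0.86) and without a slide term (to 1.01). It stayed inside without the slide of mouse 15 (-0.25 to 0.48) and in the lung channel alone (to 0.50). Ugt1a6a, a glucuronosyltransferase, differed by 0.21 (-0.09 to 0.50), inside the range in this fit. It was 0.43 (-0.01 to 0.86) on the scanner software's ratio and 0.13 without the slide of mouse 11. The interval also passed the range with the spike-in covariate (to 0.64) and without the slide of mouse 15 (to 0.64). The lung signal of the Ugt1a6a probe was low, 93 to 151 units at D2 and 103 to 149 at D3. This probe may share signal with other Ugt1a transcripts, which have common exons. Aldh3a1, an aldehyde dehydrogenase, ranged from 0.42 to 2.20 at D2 and from 0.43 to 1.84 at D3, so that the spread within a dose was larger than the difference of 0.03 (-1.0 to 1.06). The glutathione transferases Gsta1 (-0.06, interval -0.79 to 0.66) and Gsta2 (0.11, -0.58 to 0.80) had no direction that held on all slides. These last 3 genes were too variable for the interval to place them inside or outside a 1.5-fold change, and with the spike-in covariate they were at -0.67, -0.72 and -0.57.

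**Figure D1:**
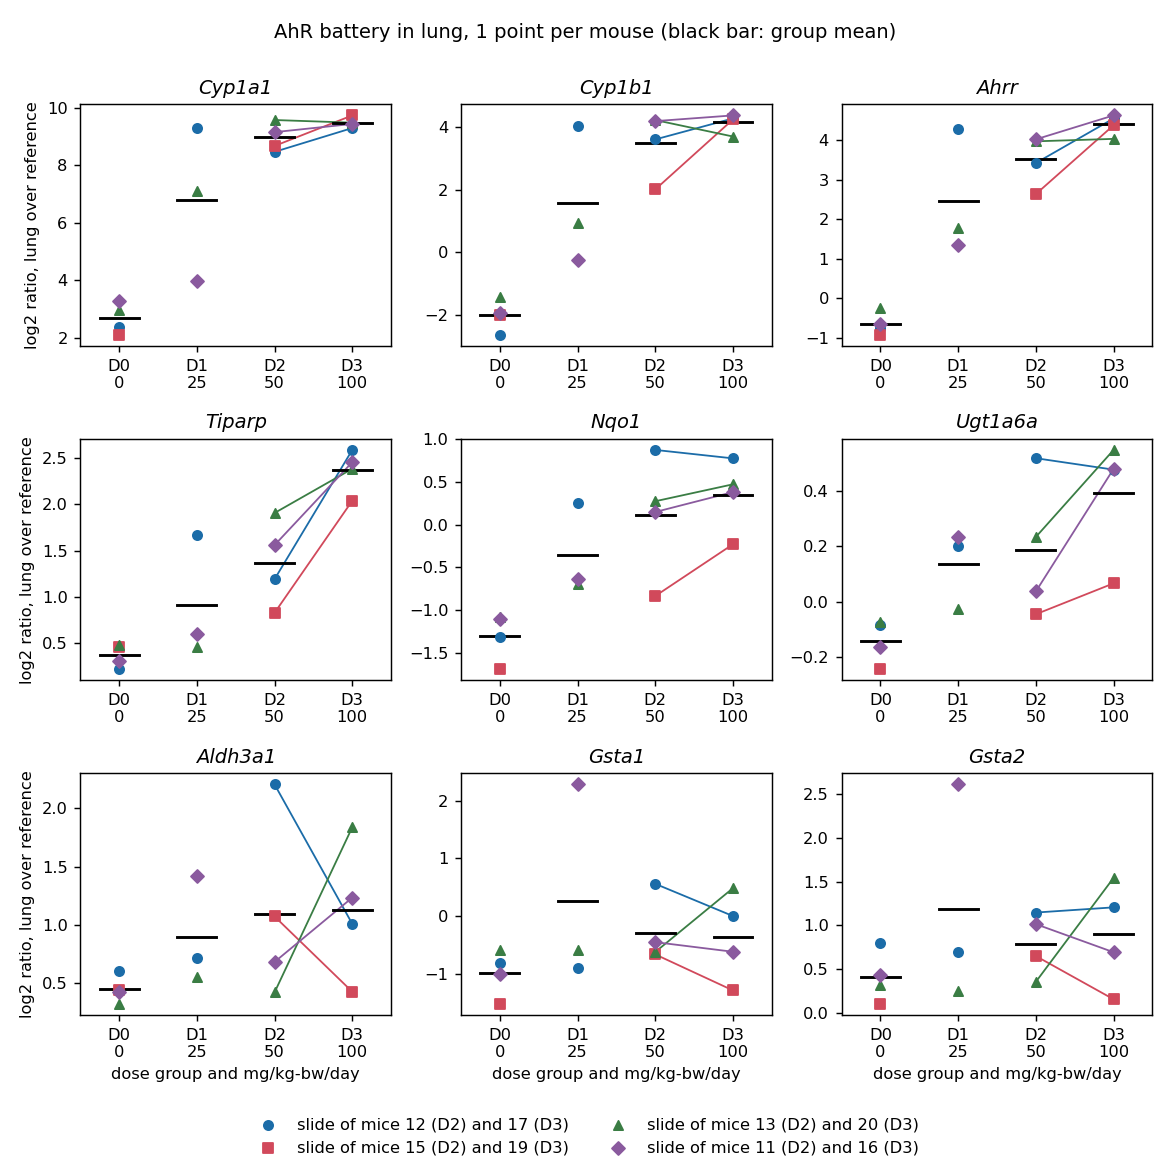
Log2 ratios of lung over reference for the 9 tested AhR battery genes in each mouse, by dose group (mg/kg-bw/day), with black bars for group means and lines joining the D2 and D3 lungs of a slide. Tiparp and Ahrr have all D3 lungs above all D2 lungs, whereas the D3 values of Nqo1 lie within its D2 range.

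To ask which responding genes had reached a plateau, responders were first defined without using the difference between the doses. The mean of D2 and D3 was compared with the vehicle in 1 fit of all 15 lungs, a contrast that is orthogonal to D3 minus D2. In that fit 37 of 32696 probes (0.113%) were called, 17 higher and 20 lower than vehicle, and the 30 probes with a symbol stood for 29 genes. The set depended on the fit: without mouse 12, 112 probes were called, 58 higher and 54 lower, and they held 36 of the 37, whereas 11 were called without a slide term, 1 on the ratio of the scanner software, 6 without mouse 2 and 7 without mouse 1. Of the 37 probes, 30 were bright enough for the test of D3 minus D2, 0 of them were called, beside 0% of all probes, and 7 had an unadjusted p under 0.05. For 15 of the 30 (7 of those higher and 8 of those lower than vehicle) the interval lay inside the 1.5-fold range, a share of the probes below the 72% found among all. The other 15 were undecided, and 0 had an interval wholly outside the range. Tiparp was at the edge, its interval starting at 0.582 against a limit of 0.585, and lay wholly above the range with normexp background (from 0.588), on the deposited table (from 0.585), with no filter (from 0.611), with the spike-in covariate (from 0.725) and without the slide of mice 13 and 20 (from 0.795). Ahrr lay above it with the spike-in covariate (from 0.670). Among the 112 probes called without mouse 12, 103 were tested, and 33 lay inside the range on 4 slides and 49 on the 3 slides without this mouse.

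Responders that were higher than vehicle were more often above than below D2 at the high dose. Of the 17 higher probes 12 were above D2 at the high dose, with a median difference of 0.23 and a range from -0.17 to 1.00. Of the 13 tested lower probes 5 were below D2 at the high dose, with a median of 0.08 and a range from -0.46 to 0.22. In the larger set called without mouse 12 the directions were more even, with D3 above D2 for 32 of the 58 higher probes on the remaining 3 slides and D3 below D2 for 26 of the 45 tested lower ones.

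Several genes that were higher than vehicle had narrow intervals around 0. Klf2, a transcription factor of quiescent endothelium, had mean log2 ratios of 3.03 in the vehicle group, 3.98 at D2 and 4.00 at D3. The step between the doses was 0.02 (-0.36 to 0.39) after a response of 0.96 to both doses together. Slc2a3, the glucose transporter GLUT3, had means of -0.92, -0.24 and -0.38, a step of -0.14 (-0.41 to 0.13). For both, the medium and the high dose thus differed by less than 1.5-fold. Kcnj10, an inward rectifier potassium channel, had means of 0.25, 1.29 and 1.23, a step of -0.05 (-0.32 to 0.22). Slc46a3, a lysosomal transporter, had means of 0.39, 1.04 and 1.32, and its step of 0.28 (0.00 to 0.55) was inside the range but above 0. Cst8, a cystatin, had a step of -0.17 (-0.67 to 0.33), too wide to place.

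The 7 responders at an unadjusted p under 0.05 between the doses were Tiparp, Ahrr, Cyp1a1, Slc46a3, Ces1g, 4931440P22Rik and Dach1, and the last 2 of these were named after their values were seen. Ces1g, a carboxylesterase, had log2 ratios of 1.94, 2.63, 2.39 and 3.00 at D2 and 2.84, 2.77, 2.88 and 3.23 at D3, with D3 above D2 on 4 of 4 slides. The groups overlapped only through mouse 11 of D2, and the difference was 0.44 (0.07 to 0.81), and 0.29 without the slide of mouse 12. 4931440P22Rik, a transcript of no function named here, differed by 0.46 (0.22 to 0.71) with no overlap between the groups, although a second probe gave 0.01. Dach1, a transcriptional regulator, was lower at D3 by a difference of -0.46 (-0.87 to -0.06) on this probe and -0.23 (-0.91 to 0.46) on another.

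Among the 13 tested probes that were lower than vehicle, 8 had an interval inside the 1.5-fold range. Klra4 and Klra16, which were tested, and Klra7, which was too dim, are receptor genes of the Ly49 family, and Gzmb encodes the cytotoxic protease granzyme B. Klra16 and Gzmb were named after their values were seen, and Ly49 genes resemble each other so closely that their probes may share signal. Klra4 had log2 ratios of -2.53, -1.62, -1.73 and -2.13 at D2 and -2.48, -1.98, -1.14 and -2.12 at D3, against -1.54 to -0.10 in the vehicle lungs. The D2 and D3 ranges overlapped, and the step was 0.08 (-0.33 to 0.48). Gzmb had means of 1.78 in the vehicle group, 1.00 at D2 and 0.89 at D3, with a step of -0.11 (-0.36 to 0.14), but of 1.11 on the ratio of the scanner software. Both intervals of the median-signal ratio were inside the 1.5-fold range, while that of Klra16 (0.22, -0.43 to 0.87) was not.

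Further lower responders had small steps. Gm14207 (0.18, -0.16 to 0.51), the cytoskeletal gene Map2 (0.21, -0.03 to 0.46), the cyclin-like gene Ccnjl (-0.02, -0.31 to 0.26) and the galactosidase-like gene Glb1l2 (0.09, -0.17 to 0.36) had intervals inside the range, although on the ratio of the scanner software Glb1l2 was at 1.22. For Grp, the gastrin-releasing peptide of neuroendocrine cells, the mean ratio was 2.28 in the vehicle group, 0.36 at D2 and 0.31 at D3. Grp, the lactate transporter Slc5a12 (2 probes), Klra7, Septin3 and Gpr141b were well above background on at most 3 of the 8 D2 and D3 arrays and were therefore not tested between the doses.

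**Figure D2:**
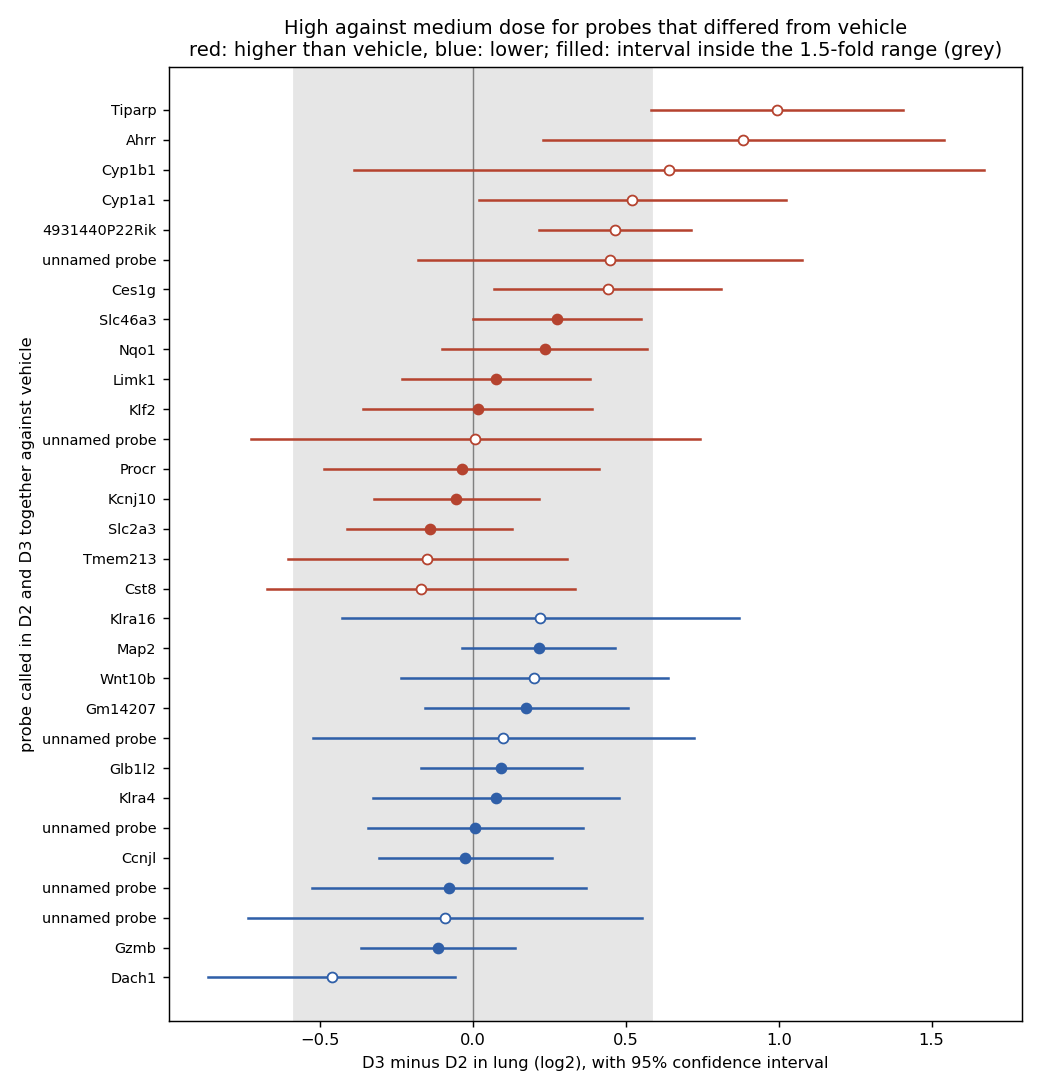
Difference D3 minus D2 (log2) with its 95% confidence interval for the 30 tested probes that differed from vehicle at both doses together, red where higher and blue where lower than vehicle. Filled points mark the 15 probes whose interval lies inside the 1.5-fold range in grey, and Tiparp and Ahrr lie farthest to the right.

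The shape of the dose response was also examined by setting the second doubling (50 to 100 mg/kg-bw/day) against the first (25 to 50 mg/kg-bw/day) in the fit of all 15 lungs. Limma called 0 of 32696 probes (0%), while 2376 (7.27%) had a p under 0.05 before adjustment and the lowest adjusted p was 0.642. Without a slide term the count was 0 with 1206 probes at an unadjusted p under 0.05, and on the scanner software's ratio it was 0 with 2072. Without mouse 12 it was 1, the transcription factor Runx1, whose steps differed by 1.95 (adjusted p 0.0431) without this mouse and by 1.35 (adjusted p 0.642) with it. For Cyp1a1 the first doubling added 2.25 (standard error 0.85) and the second 0.52 (0.77), and the difference of the steps was -1.73 (1.39). The low-dose lungs were far apart, at 3.96 (mouse 7), 9.28 (mouse 8) and 7.10 (mouse 9), which leaves the first step poorly known. Cyp1b1 had steps of 2.09 (0.80) and 0.64 (0.72), and Nqo1 of 0.69 (0.21) and 0.23 (0.19). Ahrr, with steps of 1.18 (0.53) and 0.88 (0.48), and Tiparp, with 0.55 (0.28) and 1.00 (0.25), had a second step nearer to the first or above it. Tiparp's steps differed by 0.45 (0.45), and the adjusted p of the 5 genes in this test lay between 0.689 and 0.928.

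Since no gene was called between the doses, the genes with the lowest unadjusted p are described by their values, for those that differed by at least 1.5-fold in the same direction on 4 of 4 slides. The 10 higher and 10 lower genes were chosen on this difference, so their consistency is no evidence in itself. Their adjusted p was 0.733. Of the 10 higher genes 6 had every D3 lung above every D2 lung, and of the 10 lower genes 4 had every D3 lung below. Over all probes these shares were 1.43% and 1.18%, but the rule that chose the 20 genes favours such separation. The vehicle mean lay nearer to D2 than to D3 for 15 of the 20, including 10 of 10 lower genes. This count was not taken over all probes. Of the 20 genes 1, Tiparp, was also called for the mean of D2 and D3 against vehicle. On the ratio of the scanner software some sizes differed by over 1.5 times, with -2.24 for Hspa1a, -1.66 for Sfrp2, -1.62 for Sulf1, -1.0 for Adcy2, 1.31 for Ddx23 and 0.44 for Tmprss4.

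The lowest p belonged to a lower gene. Hspa1a, the stress-induced chaperone HSP70, had log2 ratios of 0.79, 1.24, 1.15 and 1.82 at D2 and -0.20, -0.50, -0.46 and 0.58 at D3. All D3 lungs were below all D2 lungs, and D3 minus D2 was -1.39 (-1.77 to -1.02), 0.38 of the D2 level. Its vehicle lungs had a mean of 2.37 with an SD of 1.83, a spread wider than the difference between the doses, and its near-identical neighbour Hspa1b may share the probe's signal. Hspa8, the constitutive chaperone, differed by -0.75 (-1.10 to -0.40), and its other probes by -0.50 and -0.39. Cirbp, an RNA-binding protein known to be induced by cold, was on the higher side, at 0.66 (0.25 to 1.07).

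Other lower genes act in the matrix or at the cell surface. Dpt, which encodes the matrix protein dermatopontin, had log2 ratios of 2.45, 2.93, 3.18 and 2.95 at D2 and 1.28, 2.30, 2.04 and 1.86 at D3. No D3 lung reached the lowest D2 lung, and the difference was -1.01 (-1.32 to -0.69). Sfrp2, a secreted Wnt inhibitor, differed by -0.89 (-1.39 to -0.40), Sulf1, a heparan sulfatase, by -0.80 (-1.21 to -0.40; -0.51 on a second probe) and Cldn15, a claudin of tight junctions, by -0.91 (-1.40 to -0.42). Zbtb16, a zinc-finger transcription factor known to be induced by glucocorticoids, had log2 ratios of 4.22, 4.47, 3.83 and 4.47 at D2 and 3.70, 2.69, 2.47 and 3.1 at D3. Its groups did not overlap either, and the difference was -1.25 (-1.76 to -0.75). The remaining lower genes were Pde4b, a cAMP phosphodiesterase (-0.66), Gabra3, a GABA receptor subunit (-0.65), and Adcy2, an adenylyl cyclase (-0.62).

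On the higher side beside Tiparp stood Wdr78, a part of the motor apparatus of cilia, at 1.20 (0.65 to 1.75). Its values were -0.01, 0.47, 0.63 and 0.98 at D2 and 2.06, 1.5, 1.5 and 1.79 at D3, while the vehicle mean of 1.49 lay nearer to D3. Meis2, a homeobox transcription factor, differed by 1.02 (0.48 to 1.56), and on the slide of mouse 12 by 1.87. Mettl18, a histidine methyltransferase, was higher by 0.96 (0.68 to 1.25) and by 0.57 on a second probe. The others were Smim5, a small membrane protein (0.70), Tmprss4, a membrane protease (0.67), Rnu1b6, a U1 small nuclear RNA of which the genome holds similar copies (0.67), Ddx23, a spliceosomal helicase (0.63), and Areg, the epidermal growth factor receptor ligand amphiregulin (0.59). Without the slide of mouse 12 these differences kept their sign, with 0.91 for Wdr78, 0.74 for Meis2, 0.95 for Mettl18 and -1.53 for Hspa1a.

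**Figure D3:**
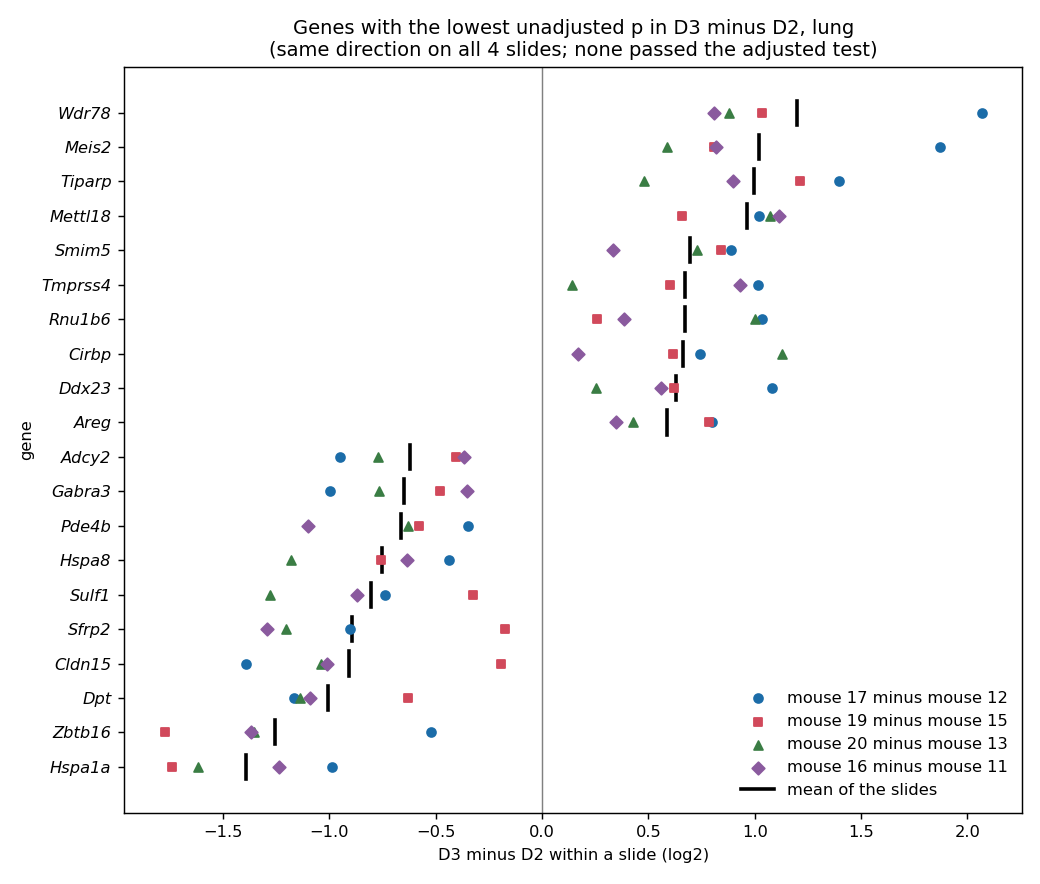
Difference D3 minus D2 (log2) on each of the 4 slides for the 10 higher and 10 lower genes with the lowest unadjusted p, with a black bar for the mean. The points of a gene lie on 1 side of 0 by the rule that chose it, from Wdr78 with a mean of 1.20 to Hspa1a with a mean of -1.39.

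The pathways around the receptor gave 0 called genes in either direction in any list, beside 0% of all probes. Among the partners of AhR, 4 of 6 tested genes were above 0 with a median of 0.11, led by the co-chaperone Ptges3 (0.29, -0.09 to 0.67; 0.18 without the slide of mouse 12) and Arnt (0.23, -0.12 to 0.58; 0.08 without the slide of mice 13 and 20). This median was -0.29 without the slide of mouse 12, so the list has no settled direction. Targets of NRF2, the regulator of antioxidant genes, had a median of 0.11 with 12 of 17 above 0, among them the malic enzyme Me1 (0.25, and 0.16 without the slide of mice 13 and 20) and the glutathione reductase Gsr (0.37, and 0.14 without it). Other drug-metabolising enzymes had a median of 0.23, with 19 of 26 above 0. In that list Ces1f (0.74, 0.04 to 1.44), Ces1g and the monooxygenase Fmo1 (0.35, 0.06 to 0.65) had the lowest unadjusted p. Another member under 0.05, named after its value was seen, had the other sign, the carboxylesterase Ces2g at -0.42. Ces1f was at 0.08 on the ratio of the scanner software and 0.20 with the spike-in covariate, and Fmo1 at 0.02 in the lung channel alone. Without the slide of mouse 12 the median was 0.14 with 18 of 26 above 0.

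Genes that answer to DNA damage, the route by which these hydrocarbons mutate cells, gave 0 calls and medians near 0. The p53 targets had a median of -0.02, with 9 of 21 above and 12 below 0. Plk2, a stress-responsive kinase, had log2 ratios of -1.06, -0.80, -0.55 and -0.49 at D2 and 0.10, -0.16, -0.37 and -0.12 at D3, without overlap. Its difference was 0.58 (0.15 to 1.01). Cdkn1a, the cell cycle inhibitor p21, was at 0.34, -0.55, -0.34 and -0.49 at D2 and -0.69, -0.74, -1.56 and -0.70 at D3, again without overlap but with the opposite sign. Its difference was -0.67 (-1.18 to -0.15), -0.25 with the spike-in covariate and -0.22 on a second probe. Gdf15, a stress cytokine, was at -0.34. Genes of nucleotide excision repair and bypass synthesis had a median of 0.08, with 14 of 20 above 0. Proliferation genes had a median of 0.05 with 15 of 19 above 0, and 0.11 with 17 of 19 above 0 without the slide of mouse 12. The 1 member at an unadjusted p under 0.05, the replication helicase subunit Mcm6, had the other sign (-0.34).

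Among the remaining pathways, clock genes were centred on 0 with a median of -0.02. Per1, a clock repressor that also answers to glucocorticoids, was at 0.62 (0.02 to 1.22; 0.32 without the slide of mice 13 and 20, 0.15 with the spike-in covariate) and Bhlhe40 at -0.44 (-0.94 to 0.07; -0.22 without the slide of mouse 12). Inflammation genes had a median of -0.29 with 3 of 15 above 0, but without the slide of mouse 12 it was 0.16 with 9 of 15 above 0. Their level in mouse 12 was a mean of -0.17 against -1.50 to -1.29 on the other 7 arrays, so the sign of the list rests on that lung. Ptgs2, the inducible cyclooxygenase, was higher at D3 on 4 of 4 slides by 0.56 (0.24 to 0.87), and Nos2, the inducible nitric oxide synthase, by 0.29 (0.05 to 0.52). Interferon genes had a median of 0.07, and -0.05 without that slide. Collagens and matrix had a median of -0.13 with 12 of 18 below 0, and -0.18 with 15 of 18 below 0 without that slide. In that list Col6a2 was at -0.38 (-0.72 to -0.04; -0.16 with the spike-in covariate) and Col14a1 at -0.29.

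Marker lists show what the sections held. Alveolar (median 0.18, 10 of 13 above 0) and airway markers (0.37, 9 of 11) had medians above 0, as did endothelial ones (0.15, 6 of 10), with 0 called. These 3 medians were 0.15, 0.29 and 0.07 without the slide of mouse 12. The surfactant gene Sftpb was at 0.37 (0.02 to 0.72), the alveolar type I gene Ager at 0.32, Sftpc at 0.23, the club cell genes Scgb1a1 at 0.53 (-0.02 to 1.08), Cbr2 at 0.36 and Cyp2f2 at 0.37, and the vascular receptor Kdr at 0.48 (0.11 to 0.84). Leaving out the slide of mice 13 and 20 gave 0.22 for Sftpb, 0.20 for Ager, 0.27 for Scgb1a1, 0.21 for Cbr2 and 0.17 for Cyp2f2. The spike-in covariate gave 0.11 for Sftpb, 0.08 for Ager, 0.10 for Sftpc, 0.03 for Scgb1a1, 0.04 for Cbr2, -0.01 for Cyp2f2 and 0.22 for Kdr, so these differences moved with the spike-in ratios. In mouse 12 the alveolar mean of 4.07 and the endothelial mean of 3.85 were the lowest of the 8 arrays. Skeletal muscle markers had a median of -1.31 with 8 of 8 below 0, and 0.14 without the slide of mouse 12. Acta1 was 5.56 in mouse 12 and -2.29 to -1.16 on the other 7 arrays, and Ckm was 5.29 in mouse 12 against -0.07 to 2.25.

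Immune and blood markers follow. Neutrophil markers had a median of -0.54 with 7 of 10 below 0, and -0.26 with 7 of 10 below 0 without the slide of mouse 12. Retnlg was 5.63, 2.64, 3.57 and 2.79 at D2 and 3.23, 2.31, 1.21 and 2.62 at D3, lower at D3 on 4 of 4 slides by -1.32 (-2.39 to -0.24), and Camp was at -1.46 (-2.86 to -0.06). The ratio of the scanner software gave -0.42 for Retnlg, and the spike-in covariate -0.48 for Retnlg and -0.57 for Camp. Fat (-0.54), macrophage (-0.32), B cell (0.34) and T cell (0.16) medians came to -0.12, 0.01, 0.05 and -0.05 without that slide. Heart muscle markers had a median of 0.30, and their mean varied from 1.67 to 4.24 across the 8 arrays. Smooth muscle markers had a median of 0.28, with Tagln at 0.60 (0.02 to 1.19; 0.14 with the spike-in covariate), neuroendocrine markers one of 0.18 and liver markers one of 0.04. The smooth muscle, neuroendocrine and liver medians were 0.17, 0.05 and -0.04 without the slide of mouse 12. In the red cell list the beta-globin gene Hbb-bt was at 0.48 (0.22 to 0.75) but at -0.16 in the lung channel alone, and the median over the 6 tested genes was -0.03. Of 10 tested B cell and plasma cell genes 9 were above 0, but 5 of 10 without the slide of mouse 12, and the exception on all slides together was Xbp1 at -0.40 (-0.71 to -0.10; -0.20 with the spike-in covariate). The stratified epithelium median of -0.91 over 2 genes became 0.05 without the slide of mouse 12. What part these cell types had in the differences of single genes was not tested.

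**Figure D4:**
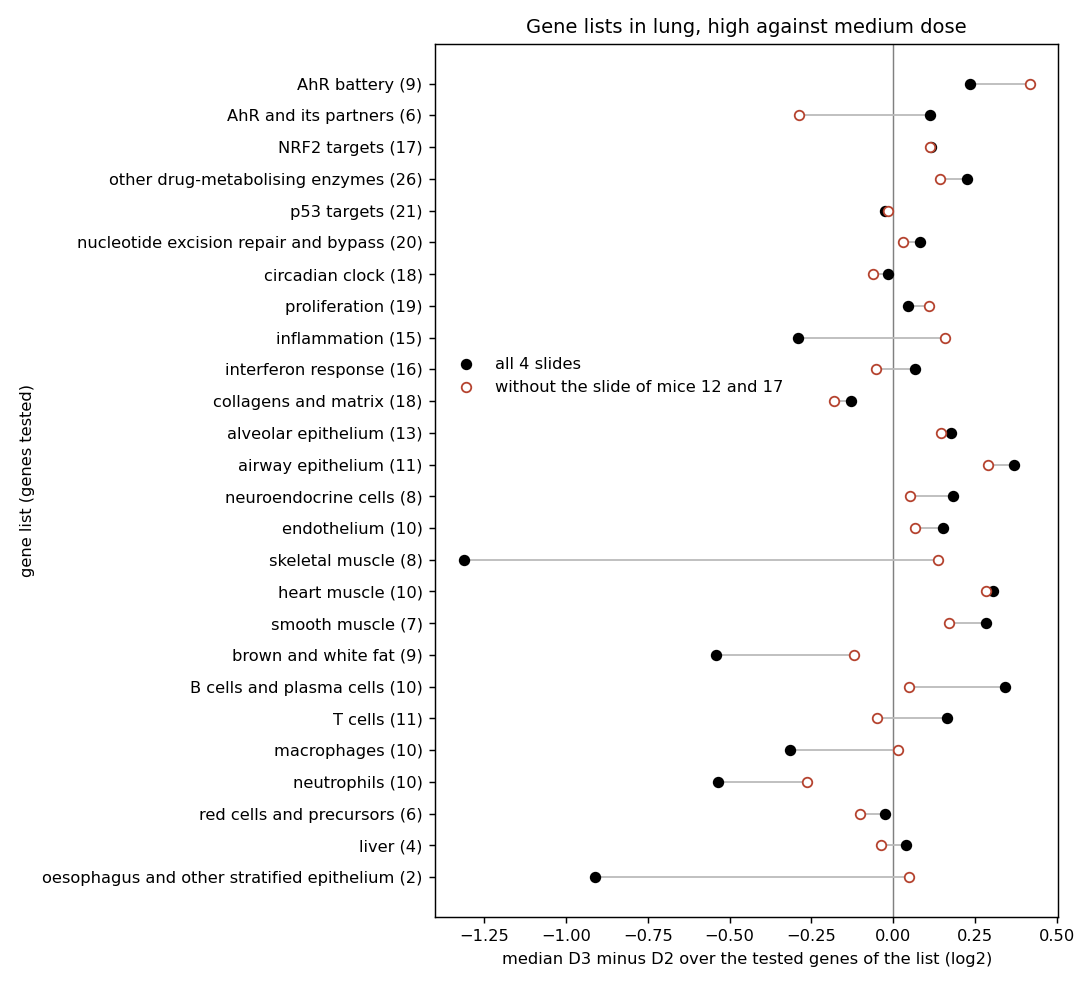
Median difference D3 minus D2 (log2) over the tested genes of each list, with all 4 slides (black) and without the slide of mice 12 and 17 (open). The skeletal muscle median of -1.31 becomes 0.14 and that of the inflammation genes turns from -0.29 to 0.16, while the AhR battery stays above 0 at 0.23 and 0.42.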

How the data were processed

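RNA of 15 lungs was hybridised as Cy5 against Cy3-labelled universal reference RNA on 2-colour Agilent arrays, 1 mouse an array; liver and forestomach arrays were not used here. Per the file headers, Feature Extraction 10.7.3.1 wrote the spot intensity (median signal of each channel, not background-subtracted) and its own log10 ratio of red over green; the scanner named there differs from that in the study's methods. The deposited log2 table holds the authors' normalised ratios, and its columns had correlations of 0.997 to 0.999 and slopes of 0.994 to 0.997 with the values computed here, so scale and direction were known; its column medians were -0.036 to -0.026.

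Here the log2 ratio of median signals was loess-normalised within each array (R 4.3.3, limma 3.58.1 and data.table), with 3671 control spots at weight 0, 3248 outlier-flagged spots left out and spots of a probe averaged (55681 probes). Names came from RefSeq accessions in the files through the RefSeq annotation (26413 probes, 47.4%); a list gene is its probe with the highest mean lung signal. D3 minus D2 was fitted with slide as a block on probes well above background on at least 4 of the 8 arrays, and the contrasts with D0 and D1 on all 15 arrays and probes well above background on at least 3. The study's MAANOVA was replaced by limma. Calls needed a Benjamini-Hochberg adjusted p of 0.05 or less and a 1.5-fold change, and a plateau meant a 95% interval within 1.5-fold. "At least" folds compare the lung channel (loess, then Aquantile) with the lowest signal well above background and are open to dye bias.

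D2 and D3 mice share no numbers; the slide in the headers pairs them, and deviations from group means correlated 0.12 to 0.28 on the same slide and -0.26 to 0.26 across slides. The number of mice limits the precision. The named genes were the AhR battery, up to 10 genes higher and 10 lower with the lowest unadjusted p, at least 1.5-fold and alike on all slides, up to 20 responders by lowest adjusted p, and up to 3 members of each list by lowest unadjusted p; exceptions are stated. The members, 26 lists (360 genes) and tests were chosen with earlier results of these data known. The scripts were tested on simulated data. Alternatives changed the block, filter, background, normalisation, source of the ratio and left-out mouse; the lung channel alone, the spike-in covariate, the 15-array filter, the counts of groups without overlap and the plateau and battery medians under alternatives were added after the data were seen. Some list members are not reported here.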

Additional observations from a re-analysis of the deposited data

Results flagged for a closer look

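Of 144 groups of 4 lungs checked (the values of the named genes and the list means at each dose), 10 held 1 lung far from the other 3, where chance gives about 1 in 20. Mouse 12 (D2) gave 4 of them. Its skeletal muscle mean was 4.84 against -0.51 to -0.02, its stratified epithelium mean 4.38 against -0.12 to 0.59, its inflammation mean -0.17 against -1.50 to -1.37 and its mean of AhR and its partners -0.17 against 0.59 to 0.74. Mouse 20 (D3) gave 2, Mettl18 at -0.053 against 0.43 to 0.52 and Rnu1b6 at 2.14 against 1.49 to 1.55. Mouse 19 (D3) also gave 2, Ugt1a6a at 0.066 against 0.48 to 0.55 and the clock mean at 0.31 against 0.59 to 0.61. In mouse 16 (D3) Cirbp was -0.49 against 0.37 to 0.38. In mouse 15 (D2) Sulf1 was 2.00 against 1.46 to 1.48.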

How the results depend on the processing

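The count of 0 calls between the doses held under all alternatives run. The 37 responders became 11 without the replicate block (slide) and 1 on the scanner software's ratio, and leaving out 1 mouse gave 6 (mouse 2) to 112 (mouse 12). They were also over 1.5 times fewer without mouse 1 (7), 3 (13), 9 (23), 11 (24), 16 (12), 17 (12) or 19 (14). Of the responders inside the 1.5-fold range, 15 became 7 without the replicate block, 6 on the scanner software's ratio and 10 to 14 without 1 slide. Second against first doubling gave 0 to 1 calls when 1 mouse was left out. The battery median of 0.23 was 0.25 to 0.42 without 1 slide.

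Over 76 single-probe values and 16 distinct alternatives, 31 changed sign, and the cause was not tested. Values moved by over 1.5 times for 45 of them with the spike-in covariate, 27 on the scanner software's ratio, 16 in the lung channel alone and 12 to 22 without 1 slide. The scanner software's ratio turned Gzmb to 1.11. The lung channel alone turned Aldh3a1 to -0.025 and -0.0055 on its probes, Glb1l2 to -0.00185, Kcnj10 to 0.0042 and Hbb-bt to -0.16. The spike-in covariate turned Aldh3a1 to -0.66 and -0.67, Gsta2 to -0.57, Klf2 to -0.20, Cst8 to 0.22, Klra4 to -0.26, Kcnj10 to 0.059, Klra16 to -0.20, Arnt to -0.039, Gsr to -0.056 and Cyp2f2 to -0.011. Without 1 slide the range was -0.45 to 0.13 for Gsta1, -0.35 to 0.46 and -0.43 to 0.44 for the Aldh3a1 probes, -0.25 to 0.31 for Gsta2, -0.10 to 0.052 for Ccnjl, -0.11 to 0.13 for Klf2, -0.36 to 0.016 for Cst8, -0.10 to 0.22 for Klra4, -0.11 to 0.012 for Kcnj10 and -0.022 to 0.45 for Klra16. A call needed a 1.5-fold difference, so smaller ones could not be called.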
